A study of Homo sapiens with 6 samples.

Results

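The GAGE, PAGE, XAGE, SPANX, SSX, CT45A, CT47 and VCX genes are multicopy cancer-testis families, and their levels were measured in decitabine-treated 786-0 kidney cancer cells. Members were the protein-coding genes whose symbol starts with a family name followed by a letter, a digit or nothing. This gave 69 of the 58381 genes counted, or of 19881 protein-coding genes. By family there were 8 SSX, 10 SPANX, 6 PAGE, 5 XAGE, 13 GAGE, 4 VCX, 9 CT45A and 13 CT47 genes. These 68 genes all lie on the X chromosome, which carried 843 protein-coding genes in the count files. The other member, SSX2IP on chromosome 1, is no relative of SSX and meets the rule through its name, so it is described apart.

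786-0 is an established human cell line from a clear cell renal carcinoma. Every library, controls included, is labelled as a knockout of SETD2, the enzyme that trimethylates lysine 36 of histone H3. The vehicle DMSO, 100 nM decitabine or 300 nM decitabine was given daily for 3 days, the medium was renewed on day 4, and RNA was taken on day 5. Each of the 3 groups had 2 libraries of polyadenylated RNA. It is not stated whether replicates were separate cultures or whether the knockout line is a single clone, so p-values reflect no more than the differences among these libraries, which may be technical.

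Cancer-testis genes are normally transcribed in germ cells of the testis and are kept silent in most other tissues, in large part by DNA methylation at their promoters. Decitabine, an analogue of deoxycytidine, enters DNA during replication and binds DNA methyltransferases covalently, and dividing cells lose methylation as a result. Many cancer-testis families on the X chromosome arose by recent duplication and lie in runs of near-identical copies. Their products are antigens of interest in tumour immunology because healthy tissue outside the testis rarely shows them.

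Reads assigned to genes numbered 89159112 to 96646427 per library, and 0 reads in a library leaves room for 3, that is 0.031 to 0.0336 CPM, the unit of reads scaled to the depth of a library. This limit and the intervals given with ratios below (95%, exact) cover counting error only, and mates counted as separate reads are not independent molecules. All 8 renal carcinoma line markers were detected, with a summed level of 3151 and 2937 CPM at 300 nM and 3001 and 3105 CPM with DMSO. VIM, CA12, CDH2 and EPAS1 were the highest of them at 300 nM, VIM alone with 2233 CPM. VIM was the marker that was higher at 300 nM than with DMSO, while 5 were lower and 2 were not called. Over all genes tested, 34.8% were higher and 31.1% lower. The log2 fold change at 300 nM over DMSO was -3.05 for CDH6, -1.66 for PAX8 and -0.85 for LHX1, kidney markers named after their values were seen. SETD2 RNA was read in every library, at 16.4 and 21.7 CPM at 300 nM and 77.9 and 81.2 CPM with DMSO. Without a library of the parental line in these data, that level does not check the knockout label. Because RNA was taken in bulk, more cells expressing a gene and more RNA per cell cannot be told apart.

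The 68 X-linked genes together had 36 and 65 reads in the DMSO libraries, 7319 and 5981 reads at 100 nM, and 15764 and 19027 reads at 300 nM. The families were near silent without drug, and the summed level was 0.533 ± 0.224 CPM with DMSO, 69.7 ± 6.97 CPM at 100 nM and 195.7 ± 7.43 CPM at 300 nM (SD, n = 2 each). No DMSO library reached a decitabine library. Of the 68, 55 had 0 reads in both DMSO libraries and 27 had 0 reads in all 6.

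**Figure D1:**
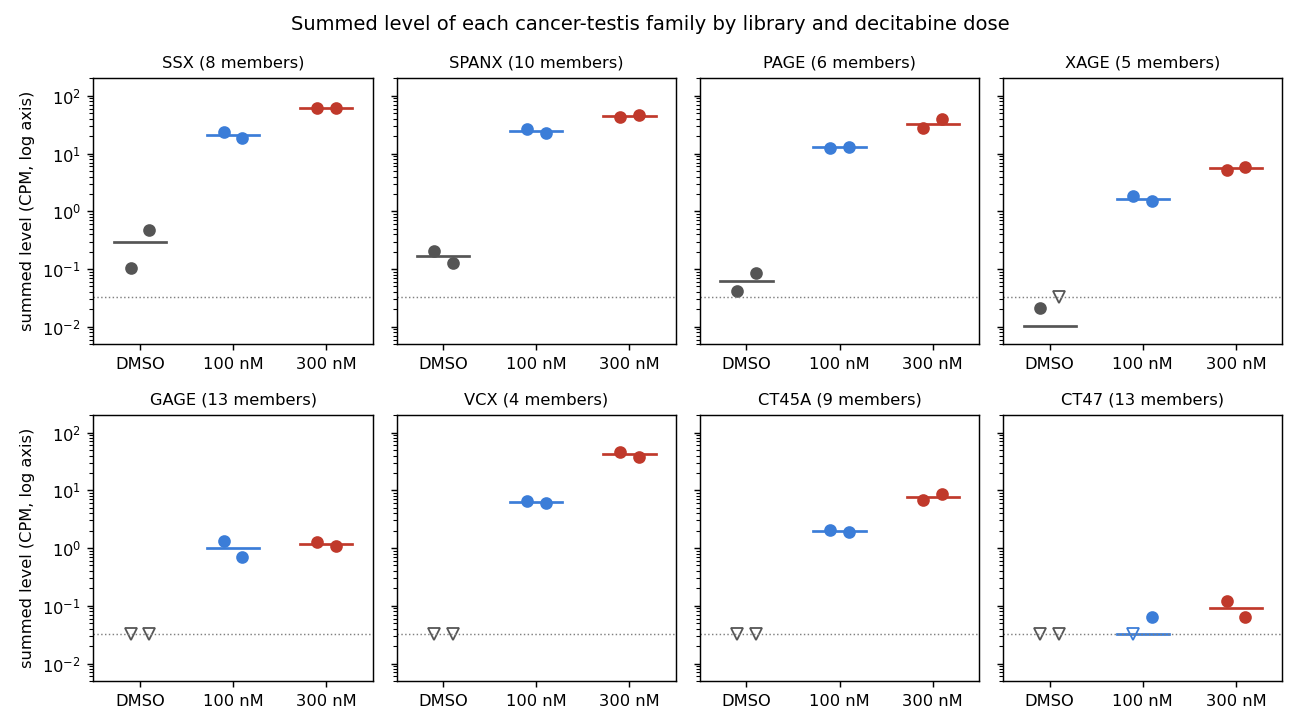
Summed level of each family (CPM with library scaling, log axis) by dose, with 1 point per library, a line at the group mean and an open triangle at the detection limit (dotted line) for a library with 0 reads. SSX, SPANX, VCX and PAGE exceeded 27 CPM in both 300 nM libraries, while CT47 stayed at or under 0.121 CPM.

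A silent gene can pass a filter on low counts only through the dose at which it is high, so the return of silent members was counted without the fitted test. A gene was taken as switched on if the DMSO libraries held no more than 3 reads of it in sum and if it had at least 10 reads in each library of the dose. At 300 nM, 24 of 61 silent members (39.3%) were switched on, beside 14.5% of the 4448 protein-coding genes as silent with DMSO and 22.7% of 255 such X-linked genes outside the families. At 100 nM it was 20 of 61 members (32.8%), beside 8.45% of the protein-coding genes and 14.1% of the X-linked genes outside the families. Near-identical copies count as separate genes in these shares. Of the 24, 6 had under 10% of the 100-base stretches of their transcripts found in no other gene. So did 23 silent members with 0 reads in every library. By family, the members switched on at 300 nM were all 5 silent SSX genes, all 5 XAGE genes, all 4 VCX genes, 4 of 8 silent SPANX genes, 2 of 4 silent PAGE genes, 2 of 9 CT45A genes, 2 of 13 GAGE genes and 0 of 13 CT47 genes. At 100 nM they were 4 SSX, 3 XAGE, 4 VCX, 4 SPANX, 2 PAGE, 2 CT45A, 1 GAGE and 0 CT47 genes.

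Of the 69 members, 32 had enough reads for edgeR's quasi-likelihood test, which was run over all 23160 genes that passed the filter. At 300 nM, 31 were higher than with DMSO (adjusted p under 0.05), where 34.8% of all genes tested were higher, and SSX2IP was lower, where 31.1% were. At 100 nM, 29 were higher against a background of 24%, SSX2IP was lower against 18.7%, and XAGE2 and SSX7 were not called. Between the doses, 22 were higher at 300 nM than at 100 nM against a background of 20%, SSX2IP was lower against 23.4%, and 9 were not called. The 37 members not tested had too few reads in every group. The 19 tested members with 0 DMSO reads passed the filter only through the decitabine libraries, so they could not be called lower than DMSO. Members with a few DMSO reads were in nearly the same position. The counts over DMSO and the median below are therefore no fair comparison with all genes tested. For members with 0 DMSO reads a fold change is given as a lower bound, set against 3 DMSO reads in sum. The bound takes the decitabine reads as counted, without their own counting error or the spread between libraries. The median log2 fold change of the 31 tested X-linked members with those 19 at their bound was 6.90 at 300 nM and 5.38 at 100 nM, where the median over all genes tested was 0.046 and 0.025.

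The promoters of 7 members are shown as examples that do not cover the whole range: highly expressed members of SSX, SPANX, PAGE and VCX, a GAGE and a XAGE gene that share letters with PAGE5, and PAGE4, which had 0 reads in every library. Each line gives the 250 bases upstream of the RefSeq start (GRCh38.p14), 5′ to 3′ along the strand recorded for the gene, with CpG dinucleotides, the sites of DNA methylation, in capitals. The direction of the SSX1 line is uncertain. Much of it reads as the reverse complement of a stretch in the promoters found for the other SSX genes. They lie at chrX:48255142-48255391 (plus strand) for SSX1, chrX:141002344-141002593 (plus) for SPANXB1, chrX:8171268-8171517 (minus) for VCX2, chrX:55220096-55220345 (plus) for PAGE5, chrX:49589246-49589495 (plus) for GAGE2A, chrX:52868084-52868333 (minus) for XAGE3 and chrX:49829010-49829259 (plus) for PAGE4.
SSX1: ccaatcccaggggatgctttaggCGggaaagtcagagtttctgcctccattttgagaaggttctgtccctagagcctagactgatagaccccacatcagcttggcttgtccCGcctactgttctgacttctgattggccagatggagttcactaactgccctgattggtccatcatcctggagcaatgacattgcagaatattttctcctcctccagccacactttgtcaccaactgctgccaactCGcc
SPANXB1: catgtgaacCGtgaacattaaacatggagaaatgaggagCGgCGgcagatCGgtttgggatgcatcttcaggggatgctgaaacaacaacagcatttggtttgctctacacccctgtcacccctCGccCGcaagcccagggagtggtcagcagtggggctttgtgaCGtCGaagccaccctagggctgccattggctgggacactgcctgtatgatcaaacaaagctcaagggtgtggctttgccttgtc
VCX2: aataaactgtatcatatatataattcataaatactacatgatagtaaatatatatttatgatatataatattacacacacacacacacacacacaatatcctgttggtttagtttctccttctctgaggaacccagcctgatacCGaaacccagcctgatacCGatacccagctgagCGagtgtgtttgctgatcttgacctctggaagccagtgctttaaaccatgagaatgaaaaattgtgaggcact
PAGE5: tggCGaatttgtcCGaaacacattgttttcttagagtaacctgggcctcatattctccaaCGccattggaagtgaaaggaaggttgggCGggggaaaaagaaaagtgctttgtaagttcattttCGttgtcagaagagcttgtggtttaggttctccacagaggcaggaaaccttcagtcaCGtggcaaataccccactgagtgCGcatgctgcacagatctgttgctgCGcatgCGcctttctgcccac
GAGE2A: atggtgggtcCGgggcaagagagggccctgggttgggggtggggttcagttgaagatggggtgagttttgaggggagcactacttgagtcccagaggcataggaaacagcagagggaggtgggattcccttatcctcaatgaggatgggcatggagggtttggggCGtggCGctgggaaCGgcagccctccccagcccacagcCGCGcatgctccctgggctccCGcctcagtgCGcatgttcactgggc
XAGE3: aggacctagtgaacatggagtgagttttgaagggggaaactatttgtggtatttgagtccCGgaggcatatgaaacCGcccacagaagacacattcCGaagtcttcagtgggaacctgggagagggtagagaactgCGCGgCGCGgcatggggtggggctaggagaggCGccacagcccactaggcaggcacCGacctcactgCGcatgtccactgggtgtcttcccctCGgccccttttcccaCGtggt
PAGE4: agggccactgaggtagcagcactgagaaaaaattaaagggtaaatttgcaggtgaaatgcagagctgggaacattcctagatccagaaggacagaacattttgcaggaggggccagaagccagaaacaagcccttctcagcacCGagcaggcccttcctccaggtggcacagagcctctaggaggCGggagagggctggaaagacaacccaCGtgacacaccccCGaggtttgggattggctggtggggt

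RefSeq promoter windows of 300 bases (250 before and 50 after the start) were found for 42 of the 68 X-linked members. They held a median of 10 CpG dinucleotides with a range of 1 to 16, against a median of 23 over 12934 protein-coding genes and 18 over 576 X-linked genes outside the families. SSX1 had 5, SPANXB1 9, PAGE5 10, GAGE2A 13, XAGE3 14 and PAGE4 4. The count of SSX1 rests on a window of uncertain direction. VCX2 had 3 at a GC content of 38%, against a median GC content of 63.3% over the protein-coding genes. Within the VCX family the windows ran from 1 CpG in VCX3A to 16 in VCX, the latter at a GC content of 58.3%. The RefSeq start of VCX lies 909 bases inside its gene model and that of VCX2 at the edge, so these counts hold for the starts used. VCX2 and PAGE4, with CpG counts of 3 and 4, had 2442 and 0 reads over the 300 nM libraries.

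The windows also differed in 2 short motifs, each searched on both strands. The letters TGCGCATG (reverse strand CATGCGCA), which hold a CpG and lie within the consensus site of the transcription factor NRF1, were present in 16 of the 42 member windows, beside 2.98% of the protein-coding windows and 2.6% of the X-linked windows outside the families. The 16 were all 9 GAGE windows, 5 of 6 PAGE windows and 2 of 4 XAGE windows (XAGE1A and XAGE3), and there was no match in SSX, SPANX, VCX or CT45A windows. This motif was chosen after the sequences were seen, and GAGE promoters are near copies that do not count as separate cases. In the lines above it reads tgCGcatg in GAGE2A, PAGE5 and XAGE3. PAGE4 was the PAGE window without it, but PAGE3, which also had 0 reads in every library, carried it. The letters GGAA (reverse strand TTCC, no overlap with the other motif), the core of ETS factor sites, were in 37 of 42 member windows (88.1%) and 95.2% of protein-coding windows, with 5 of 9 among SPANX. SPANXB1 had none.

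SSX proteins are nuclear repressors that bind chromatin through their C-terminal end, and SSX1 or SSX2 is joined to SS18 by the translocation of synovial sarcoma. All 8 SSX genes were higher at 300 nM than with DMSO and 7 at 100 nM. The summed level was 0.291 ± 0.265 CPM with DMSO, 21.3 ± 3.31 CPM at 100 nM and 61.0 ± 0.728 CPM at 300 nM (SD, n = 2 each), of which SSX1 made up most. SSX1 (chrX:48255317-48267444) had 8 and 29 reads under DMSO, 1796 and 1386 under 100 nM and 4320 and 4944 under 300 nM. Its low DMSO level was read in both libraries, and the groups did not overlap. The log2 fold change of SSX1 was 8.06 at 300 nM over DMSO (SE 0.28, adjusted p = 2e-13), 6.41 at 100 nM over DMSO (SE 0.27, adjusted p = 5.59e-12) and 1.65 at 300 nM over 100 nM (SE 0.18, adjusted p = 1.8e-06). The size of the first 2 depends on the DMSO library used: at 300 nM it was 7.39 without DMSO replicate 1 and 9.26 without DMSO replicate 2, and at 100 nM 5.75 and 7.62.

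SSX3 (chrX:48346428-48356707), which lies on the opposite strand beyond SSX1, had 0 and 0 reads under DMSO, 311 and 235 under 100 nM and 258 and 335 under 300 nM. It was at least 212-fold higher at 300 nM and at least 182-fold higher at 100 nM than with DMSO. The doses overlapped, and the difference between them was a log2 fold change of 0.22 that missed the threshold (SE 0.22, adjusted p = 0.448). SSX5 (chrX:48186220-48196763) had 0 and 14 reads under DMSO, 57 and 41 under 100 nM and 164 and 190 under 300 nM, with log2 fold changes over DMSO of 4.73 at 300 nM (SE 0.59, adjusted p = 2.18e-06) and 2.77 at 100 nM (SE 0.63, adjusted p = 0.00179). Its DMSO reads came from replicate 2 alone, without DMSO replicate 1 the values were 3.73 and 1.78, and the call at 100 nM did not hold under DESeq2's Wald test, with adjusted p from 1.16e-09 to 0.174 over the settings tried.

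SSX2 (chrX:52696896-52707189) and SSX2B (chrX:52751132-52790305) are near-identical copies with a fully matching promoter, and no stretch of 100 bases in the transcripts of SSX2 was unlike every other gene. SSX2 had 0 and 0 reads under DMSO, 68 and 42 under 100 nM and 102 and 128 under 300 nM, at least 82.1-fold higher at 300 nM and at least 36.6-fold higher at 100 nM than with DMSO. The doses did not overlap, with a log2 fold change of 1.17 at 300 nM over 100 nM (SE 0.37, adjusted p = 0.0181), a call that was lost without 100 nM replicate 2 or without either 300 nM replicate (adjusted p from 0.00577 to 0.156 over the settings tried). The other SSX genes had 223 (SSX2B), 70 (SSX4), 72 (SSX4B) and 26 (SSX7) reads over the 300 nM libraries. SSX4 and SSX4B, a mirrored pair with no stretch of their own, were at nearly equal counts, and the split of reads between them is uncertain.

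SPANX proteins sit at the nucleus of spermatids and sperm, and the A to D genes form a separate run from the N genes. The 5 genes of the A to D run were higher than with DMSO at both doses, whereas the 5 SPANXN genes had too few reads to test, with at most 11 reads over the libraries of any group. The summed level was 0.168 ± 0.0568 CPM with DMSO, 24.7 ± 2.67 CPM at 100 nM and 45.1 ± 2.40 CPM at 300 nM (SD, n = 2 each). SPANXB1 (chrX:141002591-141003706) had 14 and 10 reads under DMSO, 2286 and 1858 under 100 nM and 3191 and 3899 under 300 nM. It carried most of the family's reads at both doses. Its log2 fold change was 8.29 at 300 nM over DMSO (SE 0.22, adjusted p = 8.08e-15), 7.41 at 100 nM over DMSO (SE 0.22, adjusted p = 7.62e-14) and 0.88 at 300 nM over 100 nM (SE 0.13, adjusted p = 4.74e-05).

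SPANXC (chrX:141241463-141242496) had 0 and 1 read under DMSO, 180 and 125 under 100 nM and 159 and 254 under 300 nM. Against its single DMSO read the ratio was 443 at 300 nM (interval 79.0 to 17521) and 304 at 100 nM (54.2 to 12060), and the doses overlapped in reads but not in CPM (1.92 and 2.68 at 300 nM, 1.83 and 1.35 at 100 nM), with a log2 fold change of 0.53 between them that missed the threshold (SE 0.28, adjusted p = 0.139). SPANXD (chrX:141697411-141698739) had 0 and 1 read under DMSO, 50 and 41 under 100 nM and 87 and 89 under 300 nM. SPANXA2 (chrX:141589435-141590772) had 0 and 0 reads under DMSO, 76 and 49 under 100 nM and 109 and 134 under 300 nM, at least 86.8-fold higher at 300 nM and at least 41.6-fold higher at 100 nM than with DMSO. Both rose between the doses, by a log2 fold change of 1.06 each (adjusted p = 0.0443 for SPANXD and 0.0232 for SPANXA2), and both calls were lost without 100 nM replicate 2 or without either 300 nM replicate, that of SPANXD also without 100 nM replicate 1 (adjusted p from 0.0236 to 0.192 for SPANXD and from 0.00919 to 0.184 for SPANXA2 over the settings tried). SPANXA1 and SPANXA2 share every stretch of 100 bases, so the 84 reads given to SPANXA1 over the 300 nM libraries cannot be told apart from those of SPANXA2.

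PAGE genes belong to the same superfamily as GAGE and XAGE and encode small, acidic and largely unstructured proteins. PAGE1, PAGE2, PAGE2B and PAGE5 were higher at both doses than with DMSO and higher at 300 nM than at 100 nM, while PAGE3 and PAGE4 had 0 reads in all 6 libraries. The summed level was 0.0634 ± 0.0308 CPM with DMSO, 12.8 ± 0.119 CPM at 100 nM and 33.1 ± 8.25 CPM at 300 nM (SD, n = 2 each). PAGE4, known from prostate and placenta, and PAGE3 share no 100-base stretch with another gene, so their reads could have been assigned.

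PAGE5 (chrX:55220355-55224108) had 2 and 2 reads under DMSO, 475 and 468 under 100 nM and 968 and 1586 under 300 nM. The groups did not overlap, and its log2 fold change was 9.31 at 300 nM over DMSO (SE 0.34, adjusted p = 4.88e-13), 7.79 at 100 nM over DMSO (SE 0.36, adjusted p = 1.69e-11) and 1.52 at 300 nM over 100 nM (SE 0.18, adjusted p = 4.04e-06). PAGE2B (chrX:55075063-55078909) had 2 and 3 reads under DMSO, 414 and 352 under 100 nM and 571 and 1128 under 300 nM, a log2 fold change of 1.23 between the doses (SE 0.22, adjusted p = 2.31e-04). The 300 nM libraries of both genes differed more from each other than those at 100 nM did. PAGE2 (chrX:55089008-55092842) had 0 and 1 read under DMSO, 175 and 172 under 100 nM and 404 and 609 under 300 nM. PAGE1 (chrX:49687450-49695993), which lies with the GAGE run rather than with the other PAGE genes, had 0 and 2 reads under DMSO, 180 and 195 under 100 nM and 315 and 364 under 300 nM. The step between the doses was 1.63 on the log2 scale for PAGE2 (SE 0.22, adjusted p = 1.73e-05) and 0.96 for PAGE1 (SE 0.24, adjusted p = 0.0034).

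XAGE1 was found in Ewing sarcoma and lung cancer, and of its 2 copies XAGE1A has no 100-base stretch that is not also found in XAGE1B, which has 23.7% of its own. All 5 XAGE genes were higher at 300 nM than with DMSO, 4 were at 100 nM, and all 5 were higher at 300 nM than at 100 nM. The summed level was 0.0104 ± 0.0147 CPM with DMSO, 1.66 ± 0.256 CPM at 100 nM and 5.54 ± 0.590 CPM at 300 nM (SD, n = 2 each). XAGE3 (chrX:52862525-52868068), also known from placenta, had 0 and 0 reads under DMSO, 30 and 16 under 100 nM and 122 and 202 under 300 nM. It was at least 116-fold higher at 300 nM and at least 15.3-fold higher at 100 nM than with DMSO, and its log2 fold change between the doses was 2.90 (SE 0.41, adjusted p = 3.58e-05).

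XAGE2, named for its step after its values were seen, had 0 and 0 reads under DMSO, 2 and 2 under 100 nM and 22 and 48 under 300 nM. The log2 fold change of XAGE2 at 300 nM over 100 nM was 4.12 (SE 0.95, adjusted p = 0.00235), the highest fitted step of any tested member, on 4 reads at 100 nM. XAGE1B (chrX:52512077-52520803) had 2 and 0 reads under DMSO, 76 and 76 under 100 nM and 142 and 158 under 300 nM, and XAGE1A (chrX:52495676-52500812) had 0 and 0 under DMSO, 58 and 38 under 100 nM and 102 and 120 under 300 nM. XAGE5 (chrX:52812204-52818301) had 0 and 0 reads under DMSO, 15 and 5 under 100 nM and 36 and 36 under 300 nM. The steps between the doses were 1.08 for XAGE1B (adjusted p = 0.0132), 1.31 for XAGE1A (adjusted p = 0.0104) and 1.96 for XAGE5 (adjusted p = 0.0472) on the log2 scale. Each of these calls was lost when a library was left out: 100 nM replicate 1 or 300 nM replicate 1 for XAGE1B (adjusted p from 0.00331 to 0.0618 over the settings tried), 100 nM replicate 2 for XAGE1A (0.00249 to 0.0956), and 100 nM replicate 2 or either 300 nM replicate for XAGE5 (0.0181 to 0.281), whose step was 2.86 without 100 nM replicate 1.

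GAGE1 encodes an antigen that was identified through cytotoxic T cells of a melanoma patient, and the GAGE genes form a tandem run of copies between the run of SSX1 and PAGE1. No GAGE gene had a read with DMSO. The summed level was 0 CPM with DMSO, 0.998 ± 0.433 CPM at 100 nM and 1.17 ± 0.119 CPM at 300 nM (SD, n = 2 each), at least 73.9-fold higher at 300 nM and at least 63.9-fold higher at 100 nM than with DMSO. The 2 doses overlapped, and the ratio of 300 nM to 100 nM was 1.16 with a counting interval of 0.947 to 1.42. GAGE2A (chrX:49589529-49596827) had 0 and 0 reads under DMSO, 74 and 42 under 100 nM and 31 and 51 under 300 nM, at least 29.3-fold higher at 300 nM and at least 38.6-fold higher at 100 nM than with DMSO. Its fitted step between the doses was -0.40 on the log2 scale (SE 0.49, adjusted p = 0.542), and no tested member other than GAGE2A and SSX2IP had a step below 0.

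GAGE1 (chrX:49589496-49608536) had 0 and 0 reads under DMSO, 33 and 6 under 100 nM and 25 and 41 under 300 nM, at least 23.6-fold higher at 300 nM and at least 13-fold higher at 100 nM than with DMSO. Its gene model spans GAGE2A on the same strand, and a read that fits both is assigned to neither by the counting used. GAGE12J (chrX:49322057-49329384) had 0 and 0 reads under DMSO, 13 and 8 under 100 nM and 8 and 5 under 300 nM. GAGE12H (chrX:49579983-49587301) had 0 and 0 reads under DMSO, 0 and 2 under 100 nM and 38 and 4 under 300 nM. GAGE12H rested on 300 nM replicate 1. Of the other 9 GAGE genes, 6 had 0 reads in all libraries and the others had at most 10 reads over the libraries of any group.

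VCX genes encode small basic proteins of male germ cells and lie on the short arm of the X chromosome on both sides of STS, the steroid sulfatase gene. All 4 were silent with DMSO, with 0 reads in both libraries, and all 4 were higher at both doses and higher at 300 nM than at 100 nM. The summed level was 0 CPM with DMSO, 6.19 ± 0.331 CPM at 100 nM and 42.1 ± 5.58 CPM at 300 nM (SD, n = 2 each), at least 2649-fold higher at 300 nM and at least 393-fold higher at 100 nM than with DMSO. VCX3A (chrX:6533618-6535118) had 0 and 0 reads under DMSO, 270 and 164 under 100 nM and 1448 and 1228 under 300 nM, at least 956-fold higher at 300 nM than with DMSO. VCX2 (chrX:8169944-8171267) had 0 and 0 reads under DMSO, 178 and 172 under 100 nM and 1232 and 1210 under 300 nM, at least 872-fold higher at 300 nM than with DMSO. VCX (chrX:7842262-7844143) had 0 and 0 reads under DMSO, 112 and 110 under 100 nM and 696 and 665 under 300 nM. The 300 nM libraries lay well above the 100 nM libraries for these genes, as for VCX3B (chrX:8464830-8466510), which had 0 and 0 reads under DMSO, 70 and 104 under 100 nM and 432 and 506 under 300 nM.

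The 2 doses were far apart for each VCX gene relative to the spread within a dose. The log2 fold change at 300 nM over 100 nM was 2.91 for VCX2 (SE 0.18, adjusted p = 1.9e-08), 2.75 for VCX3A (SE 0.22, adjusted p = 1.46e-07), 2.72 for VCX (SE 0.21, adjusted p = 1.09e-07) and 2.52 for VCX3B (SE 0.25, adjusted p = 1.23e-06). These copies also share sequence, and 30.1% (VCX3A) to 59.5% (VCX3B) of the 100-base stretches of their transcripts were found in no other gene. The ratio of summed reads at 300 nM to 100 nM was 6.75 for VCX (interval 6.35 to 7.18), 3.86 for CT45A (3.44 to 4.33), 3.34 for XAGE (2.94 to 3.80), 2.86 for SSX (2.76 to 2.96), 2.63 for PAGE (2.50 to 2.75), 1.83 for SPANX (1.76 to 1.89) and 1.16 for GAGE. The counting intervals of SSX and XAGE overlapped, as did those of XAGE and CT45A, and these intervals leave out the spread between libraries.

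**Figure D2:**
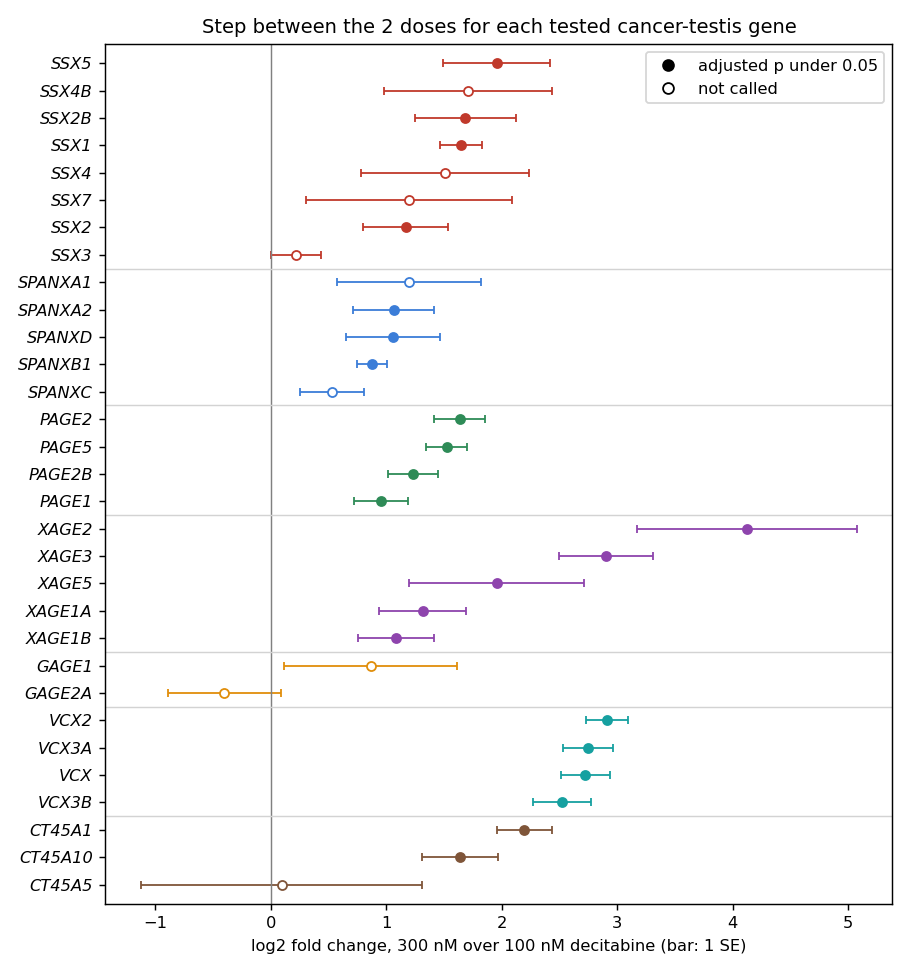
Log2 fold change at 300 nM over 100 nM decitabine for each of the 31 tested X-linked members, grouped by family, with a bar of 1 SE and a filled point where the adjusted p was under 0.05. The 4 VCX genes lie between 2.52 and 2.91, SSX3 lies at 0.22 and GAGE2A at -0.40.

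CT45A proteins are nuclear antigens seen in ovarian and lung cancers, encoded by a run of copies on the long arm of the X chromosome. No CT45A gene had a read with DMSO, and the summed level was 0 CPM with DMSO, 1.98 ± 0.139 CPM at 100 nM and 7.60 ± 1.21 CPM at 300 nM (SD, n = 2 each), at least 485-fold higher at 300 nM and at least 126-fold higher at 100 nM than with DMSO. CT45A1 (chrX:135713453-135723539) had 0 and 0 reads under DMSO, 130 and 98 under 100 nM and 384 and 596 under 300 nM, at least 350.0-fold higher at 300 nM and at least 75.8-fold higher at 100 nM than with DMSO, with a log2 fold change of 2.20 between the doses (SE 0.24, adjusted p = 2.83e-06). CT45A10 (chrX:135881063-135889086) had 0 and 0 reads under DMSO, 70 and 46 under 100 nM and 168 and 166 under 300 nM, with a step of 1.64 (SE 0.33, adjusted p = 8.31e-04). CT45A1 and CT45A10 stand at the opposite ends of the run, and their promoters matched at 92.9% of aligned positions.

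CT45A5 (chrX:135777130-135785298) had 0 and 0 reads under DMSO, 2 and 28 under 100 nM and 0 and 32 under 300 nM, so that each dose rested on replicate 2. It was called higher at both doses (adjusted p = 0.0171 at 300 nM and 0.029 at 100 nM), but the calls were lost without replicate 2 of the dose, under DESeq2 and in the deposited log2 matrix (adjusted p from 8.74e-05 to 1 at 300 nM and from 2.11e-04 to 0.312 at 100 nM over the settings tried). CT45A3 (chrX:135759846-135768191) had 0 and 0 reads under DMSO, 2 and 2 under 100 nM and 6 and 6 under 300 nM, and the other 5 CT45A genes had 0. CT47 genes form a tandem array on the long arm of the X chromosome, and 12 of the 13 had 0 reads in all libraries. CT47B1 (chrX:120872603-120875929), for which 71.4% of 100-base stretches were found in no other gene, had 0 and 0 reads under DMSO, 0 and 6 under 100 nM and 10 and 6 under 300 nM. Set against 3 DMSO reads in sum, the ratio was 5.71 at 300 nM and 2.00 at 100 nM. With so few decitabine reads, these ratios are no firm lower bounds. CT47B1 had too few reads to test, and its 100 nM reads came from replicate 2 alone.

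**Figure D3:**
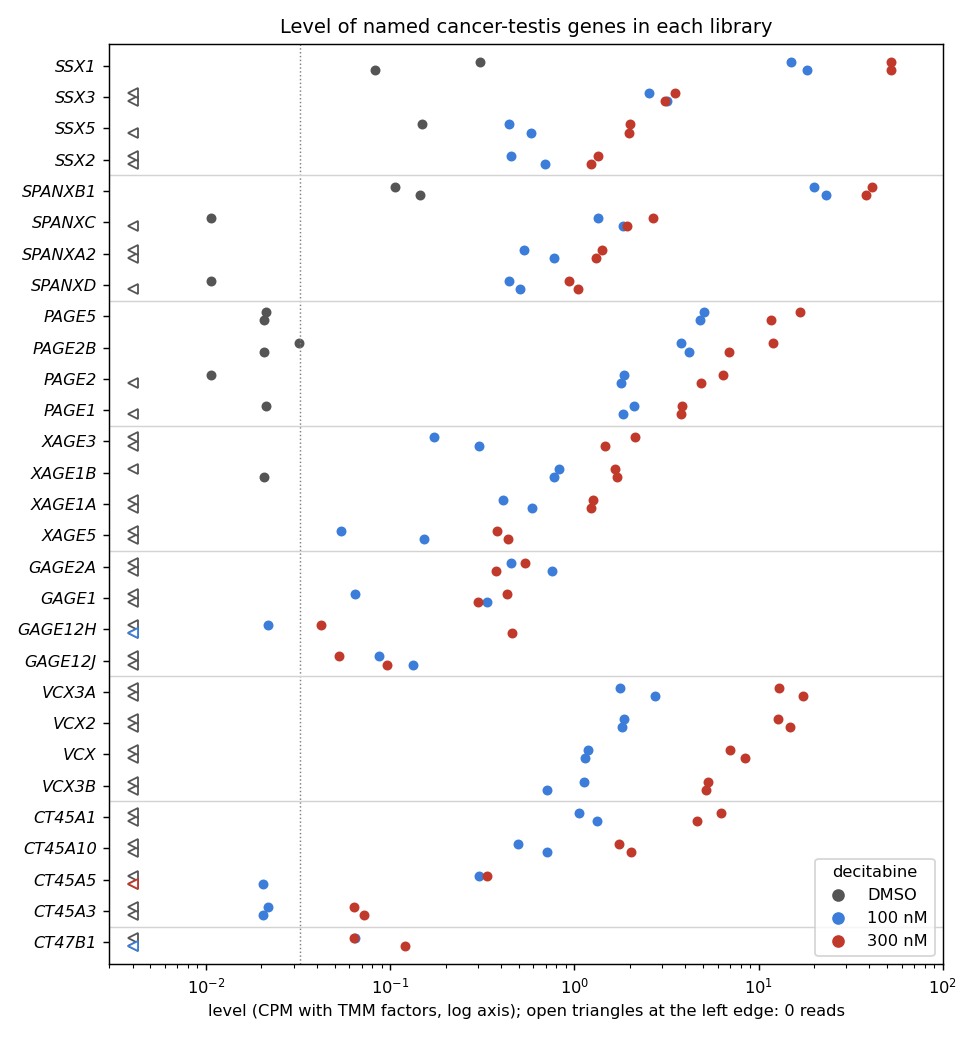
Level of 29 named X-linked members in each of the 6 libraries (CPM with library scaling, log axis), grouped by family, where the dotted line marks the level of about 3 reads and open triangles at the left edge stand for 0 reads. SSX1 and SPANXB1 are highest in every decitabine library, and the libraries of the 2 doses overlap for SSX3, GAGE2A, GAGE1, GAGE12J, CT45A5 and CT47B1.

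Scaled by exon length, the order among members was led by SPANXB1, at 82.2 and 87.8 reads per kilobase of exon at equal depth (RPKM) at 300 nM and 49.7 and 42.9 RPKM at 100 nM. SSX1 was next with 40.2 and 40.2 RPKM at 300 nM and 14.1 and 11.6 RPKM at 100 nM. At 300 nM, PAGE5 (15.7 and 22.5 RPKM), PAGE2B (13.6 and 23.5), VCX2 (18.3 and 15.7) and VCX3A (17.6 and 13.04) followed with ranges that overlapped. At 100 nM the VCX genes stood lower in that order, with 2.23 and 2.28 RPKM for VCX2 beside 6.51 and 6.82 RPKM for PAGE5. As shares of all reads from the 68 genes, SPANXB1 held 20.2% and 20.5% at 300 nM and 31.2% and 31.1% at 100 nM, while VCX3A held 9.19% and 6.45% at 300 nM and 3.69% and 2.74% at 100 nM.

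Whether a member had reads went with how much of its transcript sequence was its own. Of the 30 members with under 10% of their 100-base stretches found in no other gene, 23 had 0 reads in all libraries. Of the 13 members between 10% and 50%, 0 were without reads, and of the 25 at 50% or more, 4 were: PAGE3, PAGE4, SPANXN2 and SPANXN4. Reads that map equally well to several genes are left out by the counting used, as the recorded command has no option for them, so 0 reads for most GAGE, CT45A and CT47 copies does not show silence. Of the 26 members with no such stretch at all, however, 7 held reads, SPANXA2, SSX2 and XAGE1A the most with 243, 230 and 222 over the 300 nM libraries. Where those reads lie was not tested, and their assignment to a copy is uncertain. How many reads were lost in this way was not tested, since the deposited counts hold only assigned reads.

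**Figure D4:**
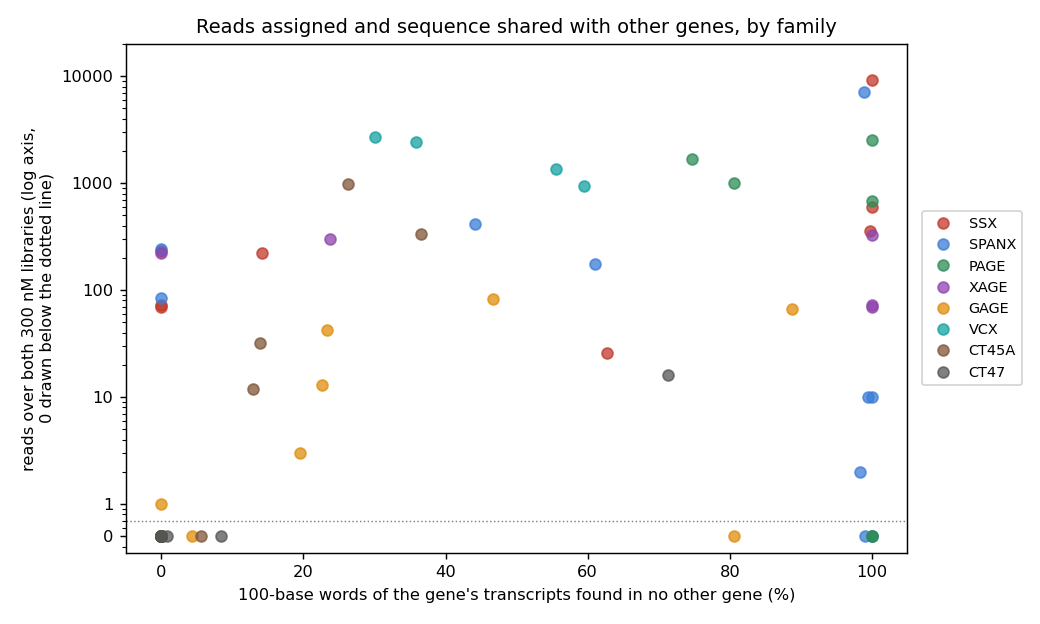
Reads over both 300 nM libraries (log axis, with 0 drawn under the dotted line) against the percentage of 100-base stretches of a gene's transcripts found in no other gene, for 68 members by family. Most members at 0 lie at the left edge, while PAGE3, PAGE4, SPANXN2, SPANXN4 and GAGE10 (which had 2 reads at 100 nM) lie at 80.6% or more.

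SSX2IP, which encodes a protein of the centrosome and of cell adhesions that was found through its binding to SSX2, went the opposite way. It had 2802 and 2835 reads under DMSO, 1348 and 1301 under 100 nM and 394 and 536 under 300 nM, without overlap between groups. Its level was 29.7 ± 0.715 CPM with DMSO, 13.9 ± 0.241 CPM at 100 nM and 5.21 ± 0.637 CPM at 300 nM (SD, n = 2 each). SSX2IP fell by 2.51 on the log2 scale at 300 nM (SE 0.14, adjusted p = 1.03e-10) and by 1.09 at 100 nM (SE 0.13, adjusted p = 4.02e-06) relative to DMSO, and by 1.41 at 300 nM relative to 100 nM (SE 0.14, adjusted p = 7.11e-07). The gene (chr1:84643707-84690803) has a transcript sequence that is its own throughout.

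**Figure D5:**
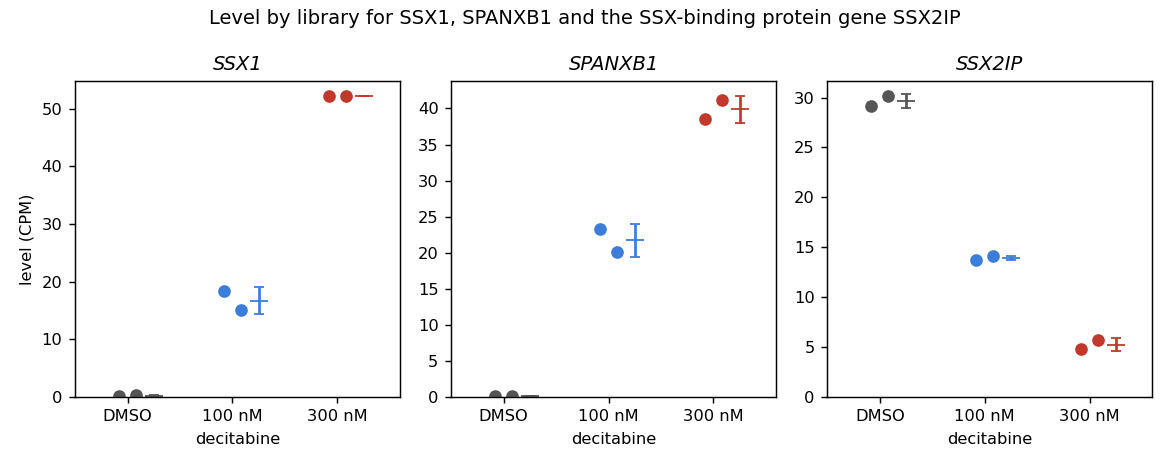
Level (CPM, linear axis from 0) of SSX1, SPANXB1 and SSX2IP in each library by dose, with a bar for the mean and SD of 2 libraries. SSX1 and SPANXB1 rise with dose to 52.2 and 39.9 CPM, and SSX2IP falls to 5.21 CPM at 300 nM.

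Genes tied to SSX proteins by fusion, by binding or through the SWI/SNF complex were read in all 3 groups. Of 8 such genes, SSX2IP included, 2 were higher and 6 lower at 300 nM than with DMSO, and 0 were higher, 5 lower and 3 not called at 100 nM, with a median log2 fold change of -1.15 at 300 nM and -0.90 at 100 nM. Over all genes tested, 34.8% were higher and 31.1% lower at 300 nM, and 24% and 18.7% at 100 nM. So few genes set beside such shares do not show a trait of the group. SS18, the fusion partner of SSX in synovial sarcoma, fell by 0.94 on the log2 scale at 300 nM (SE 0.13, adjusted p = 5.17e-06), with 3479 and 4862 reads at 300 nM and 8660 and 8386 reads with DMSO. SMARCA4, an ATPase of that chromatin remodelling complex, which contains SS18, fell by 0.67 (SE 0.10, adjusted p = 1.24e-05). Its partners SMARCB1 and BRD9 rose by 0.33 (adjusted p = 0.0159) and by 0.51 (adjusted p = 2.24e-04).

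Among cancer-testis genes of the X chromosome outside these families, 17 of 21 listed had at most 3 DMSO reads, and 9 of the 17 were switched on at 300 nM and 5 at 100 nM. Beside this, 22.7% and 14.1% of all silent X-linked protein-coding genes outside the families were switched on at these doses. Of the 21, 13 had enough reads to test, and these were higher at both doses than with DMSO, where 34.8% (300 nM) and 24% (100 nM) of all genes tested were. For the 5 of them with 0 DMSO reads the filter left no other outcome, and the other 8 listed genes were not tested. CTAG2, PASD1, TFDP3 and CT55, each with 2 DMSO reads, also passed the filter only through the decitabine libraries. CSAG1, CSAG3, FMR1NB and TKTL1, with 6, 8, 10 and 20 DMSO reads in sum, needed those libraries to pass as well. The count of 13 is therefore no fair comparison with all genes tested. The median log2 fold change of the 13 over DMSO, with genes at 0 DMSO reads set to their bound, was 6.74 at 300 nM and 4.83 at 100 nM (8.22 and 6.16 as fitted). TKTL1, a transketolase-like enzyme, had 4 and 16 reads under DMSO, 3130 and 2467 under 100 nM and 14760 and 15288 under 300 nM. FMR1NB averaged 31.7 CPM at 300 nM and 0.0522 CPM with DMSO. CTAG2, a relative of the antigen CTAG1B, averaged 8.53 CPM at 300 nM and 0.0106 CPM with DMSO, and PASD1 averaged 6.56 CPM at 300 nM and 0.0106 CPM with DMSO. NXF2B, AKAP4, CT83 and TEX28 had 0 reads in every library.

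Markers of other cells were read in the same libraries, where 34.8% of all genes tested were higher and 31.1% lower at 300 nM than with DMSO. Of 8 markers of mitotic and meiotic germ cells, 6 were higher at 300 nM than with DMSO, 1 was not called and 1 was not tested, with summed levels of 60.1 and 63.2 CPM at 300 nM and 0.364 and 0.362 CPM with DMSO. MAEL and DAZL led them with 34.5 and 21.5 CPM at 300 nM, and STRA8 and SYCP3 followed with 2.69 and 1.73 CPM. MAEL, DAZL, STRA8, DDX4 and TEX101, with 10, 4, 0, 2 and 2 DMSO reads in sum, passed the filter only through the decitabine libraries. The count of 6 is therefore no fair comparison with all genes tested. Of the 4 germ cell markers with at most 3 DMSO reads, 3 were switched on at 300 nM, beside 14.5% of protein-coding genes as silent with DMSO. Of 8 spermatid markers, 1 was tested (ACRV1) and not called, and TNP1, TNP2, PRM1, ODF1 and CRISP2 had 0 reads in every library, while SPANX genes, which mark the same stage, were read at up to 46.8 CPM in sum. Of 6 markers of testis somatic cells, SOX9 and INSL3 were higher at 300 nM, AMH was lower, and FSHR and LHCGR had 0 reads. Among blood and immune markers, CD14, HBB and LYZ were higher at 300 nM than with DMSO, and PTPRC had 4 and 0 reads at 300 nM and 2 and 10 with DMSO. HBB rested on 300 nM replicate 1, with 120 and 14 reads at 300 nM and 4 and 12 with DMSO. LYZ had few reads, 14 and 4 at 300 nM and 0 and 2 with DMSO. INSL3, LYZ and HBB, with 0, 2 and 16 DMSO reads in sum, also needed the decitabine libraries to pass the filter. The part of these other cells in the levels of the families was not tested.

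The genes next to the runs of members did not share a single direction. SAGE1, itself a cancer-testis gene, starts 0.119 kb beyond the CT45A run and had 0 and 0 reads under DMSO, 10 and 2 under 100 nM and 22 and 26 under 300 nM. MAGEC3, 140 kb beyond SPANXD, had 24 and 16 reads at 300 nM and 0 and 0 with DMSO, and CDR1, 218 kb on the other side of that run, had 0 and 1 reads at 300 nM and 18 and 26 with DMSO. STS, between VCX3A and VCX, was not called at 300 nM, with a log2 fold change of 0.20 over DMSO (SE 0.13, adjusted p = 0.174), but was called higher at 100 nM, with 19.8 CPM against 14.6 CPM with DMSO. FAM156B, 23.2 kb beyond XAGE3, fell by 0.81 on the log2 scale (SE 0.30, adjusted p = 0.0253). Within the run from SSX5 to PAGE4, which holds 20 members, 22 of the 32 tested genes that are no members were higher at 300 nM than with DMSO, beside 42% of X-linked protein-coding genes outside the families.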

How the data were processed

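The members and lists described here were chosen with earlier results of these data known. Per the file headers, the authors made the deposited counts, in reads per gene and not normalised, with featureCounts 1.5.0-p3 on GENCODE v28 models, from alignments that the submitters' processing notes credit to STAR and SAMtools. The recorded command has no paired-end, strand, multi-mapping or overlap option, so mates were counted separately, strands were not told apart, and reads fitting several copies or 2 overlapping genes were left out. The notes name hg19 and GRCh37, whereas the files carry GRCh38 coordinates: GENCODE v29 lists 56933 of the genes under an unchanged versioned identifier, all 56933 at unchanged positions. Names of 58261 genes come from that release. The deposited log2 matrix, scaled by the authors in a way not given in the sources used here, served as an alternative.

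Counts were scaled by TMM, filtered with filterByExpr (23160 genes kept) and tested with edgeR 4.0.16 (quasi-likelihood, two-sided, Benjamini-Hochberg over all genes tested, threshold 0.05). The 6 libraries shared a fit with 3 residual degrees of freedom and a biological coefficient of variation of 11.8%. Alternatives used limma 3.58.1 and DESeq2 1.42.0 under R 4.3.3. Replicate libraries differed beyond sampling noise, with a chi-square per gene of 44.0 at 300 nM, 24.4 at 100 nM and 9.04 with DMSO. In each family, up to 4 members with the highest mean CPM over the libraries were named (with a read in every library of a group), and of each list the 4 highest at 300 nM. Promoters are RefSeq's (GRCh38.p14), taken within 1 kb of the gene start. Uniqueness was measured as 100-base words of GENCODE v29 transcripts. A planned comparison of protein sequences was not run. Other libraries of the design were not analysed here. A listed blood and immune marker is not reported here.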

Additional observations from a re-analysis of the deposited data

How the results depend on the processing

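Members called numbered 32 of 69 at 300 nM over DMSO, 30 at 100 nM over DMSO and 23 at 300 nM over 100 nM. Over all alternatives (DESeq2 size factors or its Wald test, no filter on low counts, only the 2 groups compared, an offset for exon length, the deposited log2 matrix and the replicate number as a block) these counts stayed between 31 and 35, 26 and 31, and 20 and 24. Leaving out each library in turn gave 31 to 34, 30 to 31, and 18 to 24. Members switched on ranged from 18 to 27 at 300 nM and from 14 to 25 at 100 nM when 0 or 10 DMSO reads were allowed, or 5 or 20 reads needed.

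Between the doses, CT45A5 had a log2 fold change of 0.096, which turned to -0.24 in the deposited log2 matrix, -0.32 with the replicate block, -0.84 without 100 nM replicate 1 and -6.91 without 300 nM replicate 2, and was 2.98 without 100 nM replicate 2. Its reads come from replicate 2 of each dose, and its calls do not hold. No other named member changed direction under any alternative. In the deposited log2 matrix, the changes over DMSO of members near 0 reads were smaller, and those of SSX1 and SPANXB1 were 7.26 and 7.11 at 300 nM. The exon length offset moved the median of all genes at 300 nM over DMSO to 0.151 (0.046 without it), and gave 5910 genes higher and 4546 lower at 300 nM than at 100 nM (4623 and 5431 without it). Without 100 nM replicate 2, 2896 genes were higher and 4087 lower in that comparison.

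Replicate numbers came from the titles. Libraries with the same number deviated together (correlations of 0.278 between 300 nM and 100 nM, 0.135 between 300 nM and DMSO, and 0.123 between 100 nM and DMSO), but 2 numbers do not show pairing, and with the replicate block the counts of members called were 32, 30 and 23. Depth limits the members with few reads: a count of 0 allows up to 3 reads, and copies that share sequence lose reads at any depth.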

Other observations

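Pseudogenes with SSX names, which are not protein-coding and so lie outside the families described, were read in the same libraries. SSX6P had 4 and 0 reads under DMSO, 47 and 47 under 100 nM and 85 and 78 under 300 nM, with a log2 fold change of 5.37 at 300 nM over DMSO (SE 0.68, edgeR adjusted p = 2.4e-06), and it was also called at 100 nM. Its DMSO reads came from replicate 1 alone. SSX9P had 0 and 4 reads under DMSO, 18 and 4 under 100 nM and 43 and 28 under 300 nM, and SSX8P had 0 and 3 under DMSO, 12 and 8 under 100 nM and 26 and 23 under 300 nM. Both were called higher at 300 nM (adjusted p = 0.00189 for SSX9P and 0.00282 for SSX8P) and not at 100 nM. Over all genes tested, 34.8% were higher at 300 nM and 24% at 100 nM. SSX6P, SSX9P and SSX8P, with 4, 4 and 3 DMSO reads in sum, passed the filter only through the decitabine libraries. They could hardly have been called lower than DMSO, so their calls are no fair comparison with these shares. SPANXA2-OT1, a non-coding transcript across the SPANXA genes, had 8 and 0 reads under DMSO, 6 and 10 under 100 nM and 0 and 12 under 300 nM and was not called. Reads that fit a pseudogene and an SSX gene equally well are left out by the counting used, and how many there were was not tested. SSX1 shared 3.6% of its 50-base stretches with SSX6P and had 100% of its 100-base stretches to itself.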
